A study of Mus musculus with 6 samples.

Results

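The proteasome subunit genes were followed through tunicamycin treatment of mouse intestinal epithelium, one cell class at a time. Members were the genes whose GENCODE mouse symbol starts with Psma, Psmb, Psmc or Psmd and a number, without the immunoproteasome genes Psmb8, Psmb9 and Psmb10. This rule found 37 of the 27998 genes in the count table. Of these, 16 belong to the core particle (8 alpha and 8 beta genes) and 17 to the regulatory particle (6 base ATPases, 3 other base subunits and 8 lid subunits), 3 are assembly chaperones of the base (Psmd5, Psmd9 and Psmd10), and 1, Psmc3ip, is a meiotic recombination factor that shares only the name.

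The proteasome is the large protease that degrades ubiquitin-tagged proteins, including misfolded proteins pulled back out of the endoplasmic reticulum. Its barrel-shaped core holds the protease sites inside stacked rings of alpha and beta subunits, and the regulatory particle on its ends binds ubiquitin, unfolds the substrate with a ring of ATPases and removes the ubiquitin chain at the lid. When proteasome activity is short, the transcription factor Nrf1, encoded by Nfe2l1, is known to raise subunit genes together through antioxidant response elements. Tunicamycin blocks N-linked glycosylation, so that proteins misfold in the endoplasmic reticulum.

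Spheroids of intestinal stem cells from mice that carry Rosa26-floxed STOP-Cas9, crossed to cmv-cre on B6, a Cas9 knock-in with a broadly active Cre that every library shares, were grown as differentiating monolayers. From differentiation day 3, monolayers received DMSO, the solvent, or 0.5 µg/ml tunicamycin. One group had tunicamycin for 25 h, another stood for 12 h in DMSO and then had tunicamycin for 13 h, and the control had DMSO only. All were harvested on the morning of day 4, dead cells were depleted by kit, and single cells were counted by the 10x 3′ V2 method, with 2 biological replicates in each of 3 groups. The tissue label says small intestine, whereas the growth protocol speaks of colonic spheroids. Age and sex were not given in the sources used here.

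The 6 libraries held 5026 cells after filtering, between 537 and 1178 a library, with 9432005 to 19539013 unique molecular identifiers (UMIs) each. The authors' annotation placed 426 to 1046 cells a library in the enterocyte class, 75 to 109 in the goblet class and 12 to 27 in the tuft class. Enterocyte sums held 7760117 to 17429023 UMIs and goblet sums 1052495 to 1425291, so goblet values carry a larger counting error. The 25 h libraries were the smallest, and the mitochondrial share of enterocyte UMIs was 9.53 and 9.41% in DMSO, 9.05 and 9.34% after 13 h and 8.30 and 7.95% after 25 h. Of the 8 goblet markers searched, the sum was 18.3 to 19.7% of UMIs in the DMSO goblet class and 0.235 to 0.392% in enterocytes. The 12 enterocyte markers summed to 7106 and 6866 of each 1000000 enterocyte UMIs in DMSO and to 3519 and 3495 at 25 h, and Fabp1 was at 0 in 5 of the 6 libraries. In the DMSO goblet class they summed to 3937 and 3503. Of the 6 blood cell markers, Ptprc and Cd3e were at 0 in every library of the 3 classes. In enterocytes 2 to 4 of the 6 had UMIs, Cd74 and Lyz2 in every library, and the list summed to 19.0 and 15.3 of each 1000000 UMIs in DMSO, 15.9 and 19.9 after 13 h and 3.87 and 8.02 after 25 h. In goblet sums the list held 0 to 2 UMIs a library. The part of these marker shifts in the results was not tested. Cells are not replicates, so UMIs were summed per library and class and tested over libraries. The p-values then rest on the spread between the 2 libraries of each group, pooled over the groups and partly shared across genes. Levels below are counts per 1000000 UMIs (CPM) after TMM scaling, and a gene is said to have risen or fallen only at an edgeR quasi-likelihood p-value, adjusted over all genes tested, under 0.05.

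In enterocytes the subunit genes moved in both directions after tunicamycin. Of the 37 members, 34 had enough counts to be tested, and the testis subunit Psma8, the thymus subunit Psmb11 and Psmc3ip did not. At 13 h, 8 of the 34 had risen and 3 had fallen, against 47.6% of the 11145 genes tested called in either direction (23.8% up and 23.8% down). At 25 h, 10 had risen and 9 had fallen, against 50.3% of all genes (26.1% up and 24.2% down). The members called were thus 32.4% at 13 h and 55.9% at 25 h, below the share of all genes at 13 h and near it at 25 h. Among the 4537 genes counted at least as highly as the lowest member tested, 24.5 CPM, 65.1% were called at 13 h and 68% at 25 h. The median log2 change of the members was −0.01 at 13 h and −0.00 at 25 h, where the median of all genes was 0.01 and 0.03. The changes were small: the median absolute log2 change of the members was 0.10 at 13 h and 0.13 at 25 h, against 0.28 and 0.33 for all genes tested. Libraries without overlap were common. Against DMSO, both treated libraries lay above both controls for 13 of the 34 members at 13 h and below for 15. At 25 h these counts were 13 and 12. The share over all genes was not counted, so non-overlap below describes the libraries and is no mark of a particular gene.

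**Figure D1:**
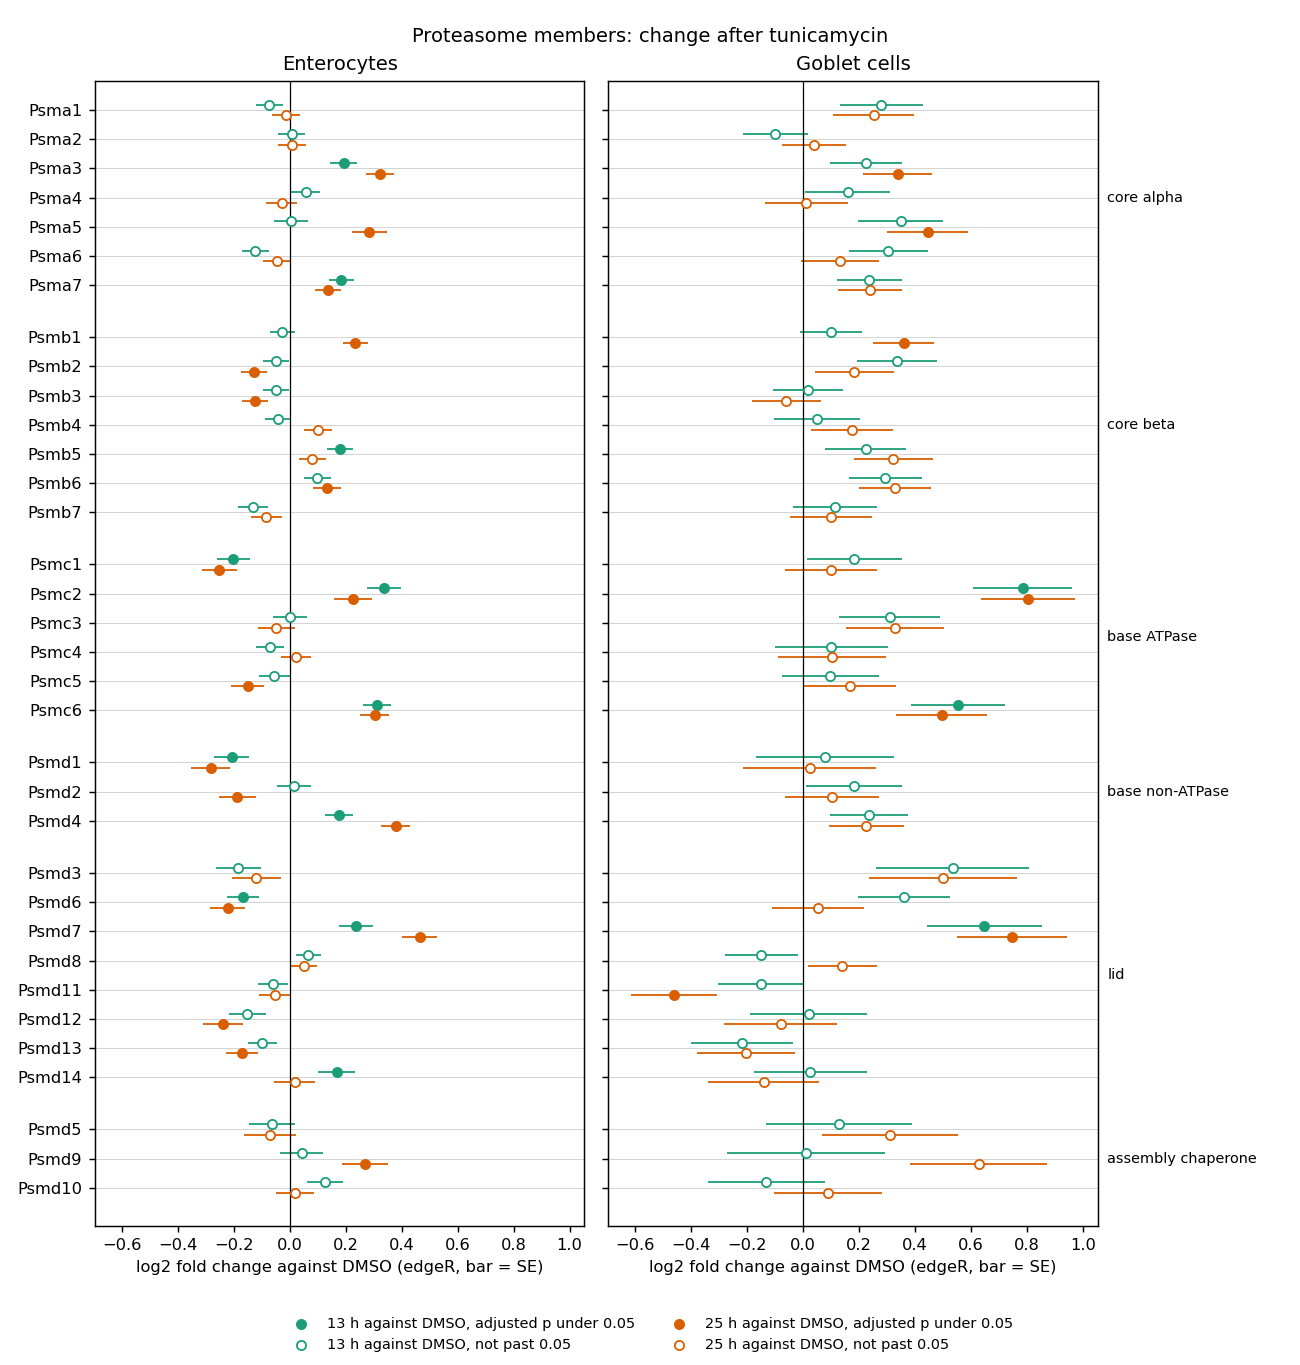
Log2 fold change against DMSO (horizontal axis, bar = standard error) of the 34 tested members by role, in enterocytes (left) and goblet cells (right), at 13 h (green) and 25 h (orange) of tunicamycin, with filled points for adjusted p under 0.05. In enterocytes filled points lie on both sides of 0, up to 0.46 for Psmd7 and down to −0.28 for Psmd1, while in goblet cells 29 of 34 points lie above 0 at each time.

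Promoters were searched for the antioxidant response element core, TGACNNNGC on either strand, through which Nrf1 is known to act. RefSeq windows of 250 bases before to 50 after the gene start (GRCm38.p6) were matched for 30 of the 37 members, and 5 held it (16.7%), against 13.0% of all 20592 windows: Psmb5, Psmb6, Psmc6, Psmd12 and Psmd9. An ATF4-type core, TGATGNAA, was found in 1 member (Psmd13) and in 3.80% of all windows. The unfolded protein response element TGACGTGG and the ER stress response element were found in 0 of 30, and in 0.646% and 0.151% of all windows. A match is a description of letters and not a bound site. The 3 below are those with the antioxidant core among the members highest or lowest in their role. In enterocytes at 25 h Psmc6 and Psmd9 rose and Psmd12 fell. That same change chose these genes, so their directions are no result about the core. Psmb5 and Psmb6 also hold it and are not shown. Each is the 250 bases before RefSeq's gene start, 5′ to 3′ on the gene's strand, which is the plus strand for all 3, with the core in capitals: Psmc6 at chr14:45329574-45329823, Psmd12 at chr11:107479278-107479527 and Psmd9 at chr5:123227940-123228189.
Psmc6: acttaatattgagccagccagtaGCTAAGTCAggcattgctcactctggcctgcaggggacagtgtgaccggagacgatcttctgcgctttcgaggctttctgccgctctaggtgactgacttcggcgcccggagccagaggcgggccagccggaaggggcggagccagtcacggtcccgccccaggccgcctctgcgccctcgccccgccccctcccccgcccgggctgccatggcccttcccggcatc
Psmd12: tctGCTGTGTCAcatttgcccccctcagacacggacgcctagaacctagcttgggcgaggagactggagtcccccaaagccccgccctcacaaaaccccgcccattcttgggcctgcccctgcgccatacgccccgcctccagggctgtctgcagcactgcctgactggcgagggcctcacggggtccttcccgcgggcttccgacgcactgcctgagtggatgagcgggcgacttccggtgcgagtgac
Psmd9: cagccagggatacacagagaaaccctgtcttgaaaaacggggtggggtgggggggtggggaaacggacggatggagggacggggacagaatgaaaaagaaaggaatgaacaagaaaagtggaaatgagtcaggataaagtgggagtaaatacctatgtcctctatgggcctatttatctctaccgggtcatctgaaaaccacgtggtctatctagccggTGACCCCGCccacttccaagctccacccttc

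The core starts 227 bases before the start of Psmc6, 247 before that of Psmd12 and 31 before that of Psmd9, on the minus strand in the first 2. RefSeq's start of Psmd9 lies 58777 bases from the gene's start in GENCODE, so the gene has more than 1 annotated start. Of the 5 tested members with the core, 3 rose and 1 fell in enterocytes at 25 h (median log2 change 0.13). Of the 23 tested members with a window and no core, 5 rose and 7 fell (median −0.01). Of all genes tested, 26.1% rose and 24.2% fell. Tested members without a window were Psmb1, Psmb2, Psmb7, Psmc3, Psmd3 and Psmd7, of which Psmb1 and Psmd7 rose and Psmb2 fell. The difference between members with and without the core was not tested.

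The alpha ring, which gates the entry to the protease chamber, had 7 genes tested in enterocytes. Psma3 and Psma7 rose at 13 h, Psma3, Psma5 and Psma7 rose at 25 h, and none fell at either time. The strongest was Psma3, with 124 and 124 CPM in the DMSO libraries, 138 and 145 after 13 h, then 159 and 151 after 25 h. The 3 groups did not overlap and were ordered by exposure. Its log2 fold change was 0.19 ± 0.05 (SE) at 13 h (adjusted p = 0.00404) and 0.32 ± 0.05 at 25 h (adjusted p = 7.94e-05). Psma5 was level at 13 h (0.01 ± 0.06) and had risen at 25 h (0.28 ± 0.06, adjusted p = 0.00174). For Psma5, 77.2% of the 31-base words in the last 500 bases of its longest coding transcript also occur in other annotated genes. Of these words 52.3% occur in Gm12989, so the Psma5 count depends on how shared reads were assigned. At the other end was Psma6, with 110 and 114 CPM in DMSO, 101 and 104 after 13 h and 110 and 106 after 25 h. The 25 h libraries of Psma6 overlapped those of DMSO, and neither comparison passed the test (−0.12 ± 0.05, adjusted p = 0.0509, and −0.05 ± 0.05, adjusted p = 0.471).

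The beta ring carries the protease sites. Of its 7 tested genes, Psmb5, the chymotrypsin-like protease, was the 1 that rose at 13 h (0.18 ± 0.05, adjusted p = 0.0057). At 25 h Psmb1, a structural subunit, and Psmb6, the caspase-like protease, had risen, and the structural subunits Psmb2 and Psmb3 had fallen. Psmb1 stood at 337 and 334 CPM in DMSO, 324 and 335 after 13 h, then 390 and 400 after 25 h. Only the 25 h libraries of Psmb1 stood apart, above all 4 others. The change was 0.23 ± 0.04 against DMSO (adjusted p = 0.000551) and 0.26 ± 0.05 against 13 h (adjusted p = 0.000873). Psmb2 stood at 188 and 183 CPM in DMSO, 183 and 176 after 13 h, then 170 and 169 after 25 h. Its 25 h libraries lay below all others, by a log2 fold change of −0.13 ± 0.05 (adjusted p = 0.035), a call lost without DMSO replicate 1 or 25 h replicate 2. Psmb7, the trypsin-like protease, did not pass at either time (−0.13 ± 0.05 and −0.08 ± 0.06). The last 500 bases of Psmb3 and Psmb5 share 73.6% and 63.4% of their words with other annotated genes, and those of Psmb1 and Psmb6 17.0% and 15.5%.

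The 6 ATPases of the base form the ring that unfolds substrates, and in enterocytes they moved in opposite directions. Psmc2 and Psmc6 rose at both times, Psmc1 fell at both, Psmc5 fell at 25 h, and Psmc3 and Psmc4 did not pass. Psmc6 had 96.6 and 99.2 CPM in DMSO, 119 and 124 after 13 h, then 125 and 117 after 25 h. All 4 treated libraries lay above both controls, with a log2 fold change of 0.31 ± 0.05 at 13 h (adjusted p = 0.000143) and 0.30 ± 0.05 at 25 h (adjusted p = 0.000223). Psmc2 rose by 0.34 ± 0.06 at 13 h (adjusted p = 0.00042) and 0.23 ± 0.07 at 25 h (adjusted p = 0.0113). Psmc1 had 76.6 and 77.4 CPM in DMSO, 66.8 and 67.1 after 13 h, then 60.2 and 68.8 after 25 h. All 4 treated libraries of Psmc1 lay below both controls, with changes of −0.20 ± 0.06 (adjusted p = 0.0111) and −0.25 ± 0.06 (adjusted p = 0.00389). Of the words in the last 500 bases of Psmc1, 35.5% also occur in other annotated genes, 25.7% in Gm9575.

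The other base subunits also moved both ways. Psmd4, the ubiquitin receptor, had 111 and 118 CPM in DMSO, 131 and 128 after 13 h, then 152 and 146 after 25 h. The 3 groups of Psmd4 did not overlap, and it rose by 0.18 ± 0.05 at 13 h (adjusted p = 0.00873), 0.38 ± 0.05 at 25 h (adjusted p = 2.45e-05) and 0.20 ± 0.05 between the 2 times (adjusted p = 0.0121). Psmd1, the large scaffold of the base, had 42.6 and 41.7 CPM in DMSO, 36.7 and 36.4 after 13 h, then 33.2 and 36.0 after 25 h. Its treated libraries lay below both controls, with changes of −0.21 ± 0.06 (adjusted p = 0.0141) and −0.28 ± 0.07 (adjusted p = 0.00341). Psmd2, the other scaffold, fell at 25 h (−0.19 ± 0.07, adjusted p = 0.0291), where the 2 libraries stood at 58.7 and 50.9 CPM. The terminal bases of Psmd1 and Psmd2 share 58.5% and 57.7% of their words with other annotated genes.

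The lid, which removes ubiquitin chains, held the member with the largest enterocyte change at 25 h in either direction. Of its 8 genes, 2 rose and 1 fell at 13 h, and 1 rose and 3 fell at 25 h. Psmd7, the structural partner of the lid's deubiquitinase, had 43.1 and 40.3 CPM in DMSO, 48.8 and 49.5 after 13 h, then 56.8 and 58.3 after 25 h. Its groups were separate and ordered by exposure, with a log2 fold change of 0.24 ± 0.06 at 13 h (adjusted p = 0.00487) and 0.46 ± 0.06 at 25 h (adjusted p = 2.69e-05). Psmd14, the deubiquitinase itself, passed at 13 h (0.17 ± 0.07, adjusted p = 0.0489) and was back near its control level at 25 h (0.02 ± 0.07, adjusted p = 0.854). The 13 h call of Psmd14 was lost whichever of the 6 libraries was left out. Psmd12, a scaffold of the lid, had 38.1 and 40.8 CPM in DMSO, 34.4 and 36.5 after 13 h, then 33.4 and 33.4 after 25 h. The treated libraries of Psmd12 lay below the controls, and the change passed at 25 h (−0.24 ± 0.07, adjusted p = 0.0131) but not at 13 h (−0.15 ± 0.07, adjusted p = 0.0713). Psmd6 fell at both times (−0.17 ± 0.06 and −0.22 ± 0.06), Psmd13 fell at 25 h (−0.17 ± 0.06), and Psmd3, Psmd8 and Psmd11 did not pass.

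Of the chaperones that help assemble the ATPase ring, Psmd9 rose at 25 h and Psmd5 and Psmd10 did not pass. Psmd9 had 24.9 and 24.9 CPM in DMSO, 27.1 and 24.3 after 13 h, then 29.3 and 30.7 after 25 h. Only the 25 h libraries of Psmd9 lay above all others, by 0.27 ± 0.08 against DMSO (adjusted p = 0.0126). Psmd5 had 24.1 and 26.5 CPM in DMSO, 25.4 and 23.1 after 13 h, then 25.6 and 22.7 after 25 h. The groups of Psmd5 overlapped and no comparison passed (25 h against DMSO −0.07 ± 0.09, adjusted p = 0.556). Psmd10, known as gankyrin, lay between 35.6 and 40.2 CPM in the 6 libraries.

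**Figure D2:**
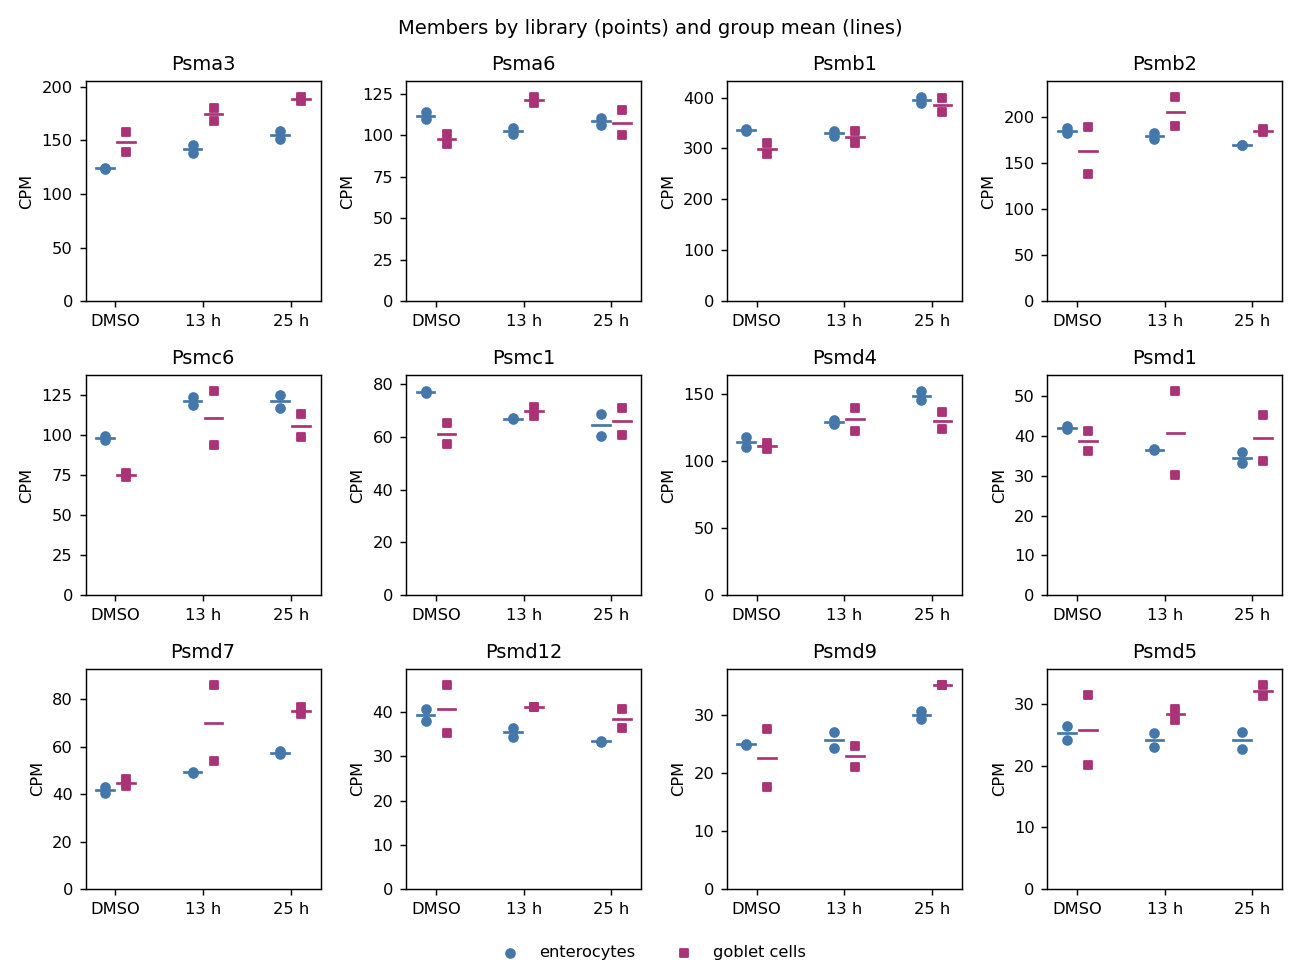
TMM-scaled CPM of the 12 members that were highest or lowest in their role by enterocyte change at 25 h (one panel each, vertical axes from 0), with 1 point per library for enterocytes (circles) and goblet cells (squares) and a line at each group mean of 2 libraries. Enterocyte points of one group lie close together, as for Psmd7 at 56.8 and 58.3 CPM at 25 h, while the smaller goblet sums scatter more, as for Psmd7 at 86.1 and 54.1 CPM at 13 h.

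Between 13 h and 25 h, 4 members rose in enterocytes (Psma5, Psmb1, Psmd4 and Psmd7) and 1 fell (Psmd2, −0.20 ± 0.07, adjusted p = 0.048), against 21.4% of all genes called (10.4% up and 10.9% down). Psmd4 and Psmd7 had already risen at 13 h, and Psma5 and Psmb1 had not. Both times are compared with the same DMSO libraries. Leaving out each library in turn, 7 of the 19 calls at 25 h held every time: Psma3, Psmb1, Psmc6, Psmd4 and Psmd7 up, and Psmc1 and Psmd1 down. Each of the other calls was lost without at least 1 library. The 7 also held under each of the other settings tried, among them DESeq2 and scaling by total counts. At 13 h, 3 of the 11 calls held for every library left out (Psmc1, Psmc2 and Psmc6), and the call of Psmc1 was lost under at least 1 other setting. DESeq2 found 4 up and 0 down at 13 h and 6 up and 2 down at 25 h, and scaling by total counts left 1 of the falls at 13 h and 4 at 25 h.

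In goblet cells, the mucus-secreting class, most members lay above 0 and few passed the test. At 13 h, Psmc2, Psmc6 and Psmd7 had risen and none had fallen, against 22.4% of the 7839 genes tested called (10.8% up and 11.5% down). At 25 h, 6 had risen (those 3 with Psma3, Psma5 and Psmb1) and 1 had fallen (Psmd11), against 31.8% (15.8% up and 16% down). Those 3 and 6 genes also rose in enterocytes of the same libraries, which was also so for most genes: of all genes that rose in goblet cells and were tested in both classes, 88.3% at 13 h and 87.2% at 25 h rose in enterocytes too. The genes that rose in both classes were 37.5% and 60% of the members that rose in enterocytes, against 32.7% and 45% over all genes. DESeq2 called 0 members at 13 h and 1 at 25 h. The median log2 change of the 34 members was 0.17 at 13 h and 0.17 at 25 h, with 29 of 34 above 0 at each time, where the median of all genes was −0.01 and −0.00. Without 13 h replicate 1 the 13 h median was 0.10, with 22 of 34 above 0, and without 13 h replicate 2 it was 0.25, with 31. Between 13 h and 25 h no member passed by edgeR or DESeq2 (3 at an unadjusted edgeR p under 0.05), against 3.5% of all genes. Both treated libraries lay above both controls for 16 of the 34 members at 13 h and 17 at 25 h, and below for 1 at each time. This was not counted over all genes.

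Psmc2, the ATPase, had 43.7 and 40.9 CPM in the DMSO goblet sums, 72.4 and 73.3 at 13 h, and 77.8 and 69.6 at 25 h. All 4 treated libraries lay above both controls, with log2 fold changes of 0.78 ± 0.18 (adjusted p = 0.0027) and 0.80 ± 0.17 (adjusted p = 0.00103), the members' largest in this class. These 2 calls held whichever library was left out. Psmc6 had 76.5 and 73.9 CPM in DMSO, 127 and 93.5 after 13 h, then 113 and 98.5 after 25 h, and rose by 0.55 ± 0.17 (adjusted p = 0.0208) and 0.50 ± 0.16 (adjusted p = 0.025). Psmd7 had 46.2 and 43.2 CPM in DMSO, 86.1 and 54.1 after 13 h, then 73.7 and 76.6 after 25 h, and rose by 0.65 ± 0.21 (adjusted p = 0.0286) and 0.75 ± 0.20 (adjusted p = 0.00624). The treated libraries of both genes lay above their controls, but the 13 h pairs were wide, and neither gene passed at 13 h without 13 h replicate 1 or either DMSO library. At 25 h the calls of Psmc6 and Psma5 were lost without either DMSO library or 25 h replicate 1, and that of Psmd7 without DMSO replicate 2.

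Among the alpha and beta genes in goblet cells, Psma3 had 139 and 158 CPM in DMSO, 180 and 168 after 13 h, then 187 and 190 after 25 h, without overlap. It passed at 25 h (0.34 ± 0.12, adjusted p = 0.0435), a call lost whichever library was left out. Psma6 had 94.9 and 101 CPM, then 123 and 119, then 100 and 115, and passed at neither time (0.31 ± 0.14 and 0.13 ± 0.14). Its 13 h libraries lay above the controls, whereas in enterocytes they lay below them. Psmb1 had 290 and 310 CPM in DMSO, 333 and 310 after 13 h, then 371 and 399 after 25 h, and rose at 25 h (0.36 ± 0.11, adjusted p = 0.0156), a call lost without either DMSO library or 25 h replicate 2. Psmb2 had 189 and 138 CPM in DMSO, 222 and 191 after 13 h, then 187 and 184 after 25 h, so the DMSO pair spanned the 25 h values and neither change passed.

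The members that fell in enterocytes did not pass in goblet cells. Psmc1 had 57.1 and 65.3 CPM in DMSO, 71.5 and 67.8 after 13 h, then 60.9 and 71.1 after 25 h (0.18 ± 0.17 and 0.10 ± 0.16). Psmd1 had 41.2 and 36.2 CPM, then 51.3 and 30.2, then 33.8 and 45.3 (0.08 ± 0.25 and 0.02 ± 0.24). Psmd12 had 46.2 and 35.4 CPM, then 41.2 and 41.2, then 36.5 and 40.7 (0.02 ± 0.21 and −0.08 ± 0.20). The groups of Psmd1 and Psmd12 overlapped, and with these standard errors their enterocyte falls would not be detectable here. Psmd4 had 109 and 114 CPM, then 140 and 123, then 137 and 124, and did not pass (0.24 ± 0.14 and 0.23 ± 0.14). Psmd9 had 17.6 and 27.5 CPM, then 24.7 and 21.1, then 35.2 and 35.2, with a 25 h change of 0.63 ± 0.25 (adjusted p = 0.0575). Psmd5 had 20.2 and 31.5 CPM, then 29.3 and 27.5, then 33.1 and 31.3, and passed at neither time. Psmd11, a lid scaffold, was the 1 member that fell, from 80.7 and 95.9 CPM in DMSO to 64.3 and 64.1 at 25 h (−0.46 ± 0.15, adjusted p = 0.0272), a call lost without DMSO replicate 2 or either 25 h library.

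Beside these changes, the markers of the goblet class itself were lower. The 8 goblet markers summed to 19.7 and 18.3% of goblet UMIs in DMSO, 11.3 and 12.1% after 13 h, then 7.93 and 9.56% after 25 h. Without TMM, scaling by total counts moved the median log2 change of all genes in goblet cells to 0.16 at 13 h and 0.13 at 25 h, and 11 members then rose at each time and none fell, with 33 and 31 of 34 above 0. Under that scaling the genes called upward were 68.4% of all genes called at 13 h and 63.8% at 25 h, in place of 48.4% and 49.6%. With the 8 markers taken out and total counts used again, a choice made after seeing the data, 3 members rose at 13 h and 5 rose and 1 fell at 25 h, with 29 and 27 of 34 above 0. In enterocytes scaling by total counts moved the median of all genes to 0.06 and 0.07.

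Whether the members changed differently in the 2 classes was tested directly, in one model of both. No member's change differed between goblet cells and enterocytes at 13 h, at 25 h or between the times, by edgeR or DESeq2, against 4.81%, 7.06% and 0.516% of the 10458 genes in that model. At an unadjusted p under 0.05 there were 6, 4 and 1 members. Scaling by total counts gave 3 members at 13 h and 1 at 25 h. The nearest at 25 h was Psmc2, whose change was larger in goblet cells by 0.53 ± 0.19 on the log2 scale (adjusted p = 0.0862). A miss of the threshold with 2 libraries a group does not show that the classes responded alike.

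The same model compared the classes within each group. In DMSO, 5 members were higher in goblet cells than in enterocytes (Psma2, Psma3, Psmb5, Psmd11 and Psmd14, by 0.26 to 0.54 on the log2 scale) and 1 was lower (Psmc4, −0.45 ± 0.14, adjusted p = 0.00954), against 35.1% of all genes. At 13 h, 9 were higher and 0 lower, against 29.1%. At 25 h, 11 were higher and 1, again Psmc4, was lower, against 32.4%. In DMSO the median member difference was 0.05, and it was 0.25 at 13 h and 0.24 at 25 h. DESeq2 called none of the 34 in DMSO. Scaling by total counts called 7 members there, and only 1 of them was among the 6 DMSO calls, so which genes differed depended on the scaling. As shares of total UMIs, core and regulatory members made 0.296 and 0.312% in DMSO goblet cells and 0.323 and 0.329% in DMSO enterocytes. None of the 6 held for every library left out: each was lost without DMSO replicate 1 or DMSO replicate 2.

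Summed over members, the proteasome held a larger share of enterocyte and of goblet UMIs in each treated library than in each DMSO library. Core and regulatory members together made 0.323 and 0.329% of enterocyte UMIs in DMSO, 0.340 and 0.349% after 13 h, then 0.358 and 0.345% after 25 h. In goblet cells they made 0.296 and 0.312%, then 0.404 and 0.363%, then 0.393 and 0.371%. With the goblet markers taken out of the total, the goblet shares were 0.368 and 0.382% in DMSO, 0.455 and 0.413% after 13 h, then 0.427 and 0.411% after 25 h. The treated libraries lay above the DMSO libraries in both classes and on both totals. These shares are without TMM, and scaled by total counts the genes as a whole also moved up. In enterocytes the median log2 change was then 0.06 at 13 h and 0.07 at 25 h over all genes, and 0.04 and 0.04 over the tested members. In goblet cells it was 0.16 and 0.13 over all genes, and 0.33 and 0.31 over the tested members. With 2 libraries a group, an exact two-sided permutation test cannot go below 0.333, so no p-value is given for these sums.

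The core and the regulatory particle, as summed over the members, kept nearly the same proportion. These sums leave out Sem1 and Adrm1, subunits of the regulatory particle whose symbols the member rule does not match. Enterocyte Sem1 stood at 392 and 384 CPM in DMSO, 414 and 397 after 13 h, then 340 and 386 after 25 h. In enterocytes there were 1.84 and 1.84 core UMIs for each regulatory UMI in DMSO, 1.83 and 1.84 after 13 h, then 1.88 and 1.93 after 25 h. In goblet cells the ratios were 1.91 and 1.92, then 1.90 and 1.90, then 1.98 and 1.98. Both 25 h libraries lay above the other 4 in each class, by 0.05 on the log2 scale against DMSO in each. Leaving out the most abundant member of each particle reduced this to 0.02 in each class, and the 25 h libraries then no longer lay above all the others (1.82 at 25 h replicate 1 and 1.83 at 13 h replicate 2 in enterocytes, 1.94 at 25 h replicate 2 and 1.95 in DMSO replicate 2 in goblet cells). By gene, at 25 h in enterocytes 5 of 14 core genes rose and 2 fell, and 4 of 17 regulatory genes rose and 7 fell. Of all genes, 26.1% rose and 24.2% fell. The falls depended on the method: of all members 9 fell by the main fit, 4 with total counts and 2 by DESeq2. The median log2 change was 0.04 for the core and −0.05 for the regulatory particle. At 13 h, 3 core genes rose and 0 fell, and 5 regulatory genes rose and 3 fell, against 23.8% of all genes each way. In goblet cells the core had 0 up at 13 h and 3 up at 25 h with none down. The regulatory particle had 3 up at 13 h, and 3 up and 1 down at 25 h. Of all genes there, 10.8% rose and 11.5% fell at 13 h, and 15.8% rose and 16% fell at 25 h. The difference between the particles was not tested by gene.

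**Figure D3:**
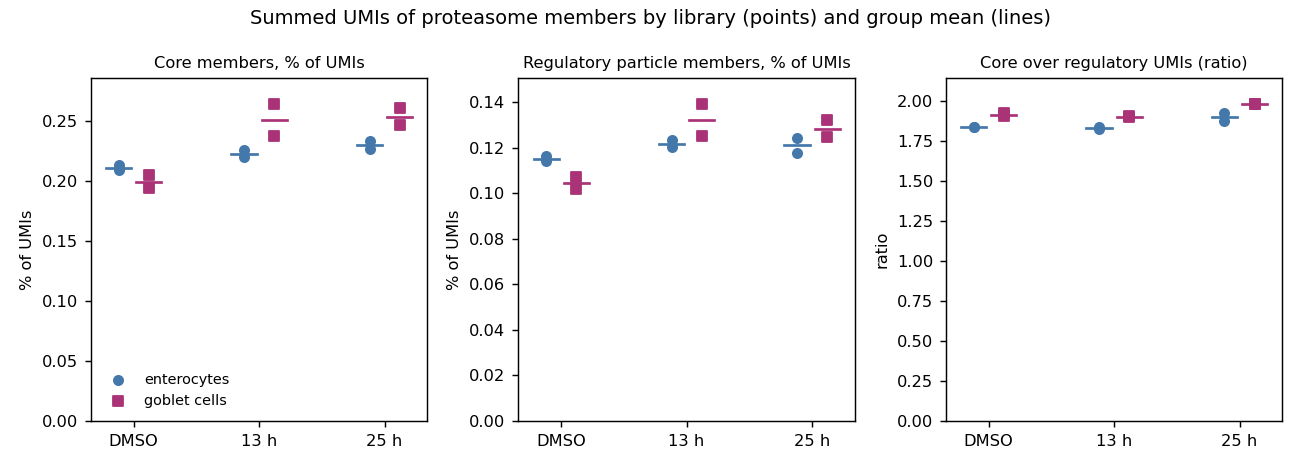
Summed UMIs of the core members (left) and the regulatory members (middle) as percent of all UMIs of the class, and their ratio (right), with 1 point per library for enterocytes (circles) and goblet cells (squares) and a line at each group mean of 2 libraries. Treated libraries lie above DMSO libraries in the sums, which are shares of total counts without TMM. The ratio moves from 1.84 in DMSO enterocytes to 1.88 and 1.93 at 25 h.

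With each cell thinned to 5000 UMIs, the median enterocyte held 15 and 16 proteasome UMIs in the DMSO libraries, 17 and 17 after 13 h, then 18 and 17 after 25 h. The median goblet cell held 13 and 14, then 20 and 17.5, then 19 and 17. Unthinned medians were 49 to 61 in enterocytes and 32 to 52 in goblet cells. No thinned cell of either class was without a proteasome UMI, and 2 to 13 enterocytes and 2 to 8 goblet cells a library were too shallow to thin. In the tuft class the members made 0.551 and 0.511% of UMIs in DMSO, 0.611 and 0.434% after 13 h, then 0.366 and 0.674% after 25 h. With 12 to 27 tuft cells a library the groups overlapped, and no test was made.

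Other genes of the pathway, from lists chosen by function, included changes over 1 on the log2 scale. Nfe2l1, which encodes Nrf1, had 54.0 and 54.7 CPM in DMSO enterocytes, 143 and 141 at 13 h, and 121 and 113 at 25 h. It rose by 1.39 ± 0.05 at 13 h (adjusted p = 3.63e-11) and by 1.10 ± 0.05 at 25 h (adjusted p = 6.62e-10). In goblet cells Nfe2l1 went from 65.5 and 46.4 CPM to 135 and 136 at 13 h and 112 and 133 at 25 h (1.28 ± 0.17 and 1.13 ± 0.17). All treated libraries lay far above the controls. Of the other 3 genes of that list in enterocytes, Ddi2, the protease that activates Nrf1, rose at 13 h (0.32), the related factor Nfe2l2 rose at 25 h (0.16), and Ngly1, which deglycosylates Nrf1, fell at 25 h (−0.26).

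Of the 5 dedicated chaperones that assemble the core, 3 rose and 1 fell in enterocytes at 13 h, and 4 rose and 1 fell at 25 h. Of all genes tested there, 23.8% rose and 23.8% fell at 13 h, and 26.1% rose and 24.2% fell at 25 h. Psmg3 went from 5.2 and 7.0 CPM in DMSO to 13.7 and 12.9 at 13 h and 10.8 and 11.4 at 25 h (1.13 ± 0.14, adjusted p = 1.44e-05, and 0.88 ± 0.16, adjusted p = 0.000386). Its partner Psmg4 rose at 25 h by 0.58 ± 0.10. Of the other pair, Psmg2 rose by 0.79 ± 0.13 and 0.61 ± 0.15 and Psmg1 by 0.50 ± 0.14 and 0.47 ± 0.15. Pomp, which guides beta ring assembly, fell (−0.16 ± 0.05 and −0.23 ± 0.05). In goblet cells 2 of these 5 rose at 13 h and 3 at 25 h, against 10.8% and 15.8% of all genes. Psmg3 there had 11.8 and 3.9 CPM in DMSO, 19.2 and 25.7 after 13 h and 23.0 and 24.2 after 25 h (1.53 ± 0.40 and 1.60 ± 0.37).

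Of the 3 immunoproteasome genes, which replace the protease subunits under interferon, 2 fell in enterocytes at 13 h, against 23.8% of all genes. In enterocytes Psmb9 went from 30.1 and 30.2 CPM to 16.1 and 13.5 at 13 h and back to a mean of 29.7 ± 1.84 (SD, n = 2) at 25 h (−1.03 ± 0.09, adjusted p = 3.66e-07, and −0.03 ± 0.08, adjusted p = 0.817). Psmb10 fell at both times (−0.92 ± 0.06 and −0.22 ± 0.06), and Psmb8, at 0.5 to 1.7 CPM, did not pass. In goblet cells Psmb9 fell at both times (−1.65 ± 0.29 and −1.20 ± 0.26), as did Psmb10 (−0.97 ± 0.14 and −0.77 ± 0.13). The activator caps Psme1 and Psme2, which pair with the immunoproteasome, fell in enterocytes at 13 h (−0.52 and −0.38) and 25 h (−0.16 and −0.24). Psme4, another activator, fell at both times and Psme3 at 25 h, while the inhibitor Psmf1 rose at both (0.35 and 0.35).

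**Figure D4:**
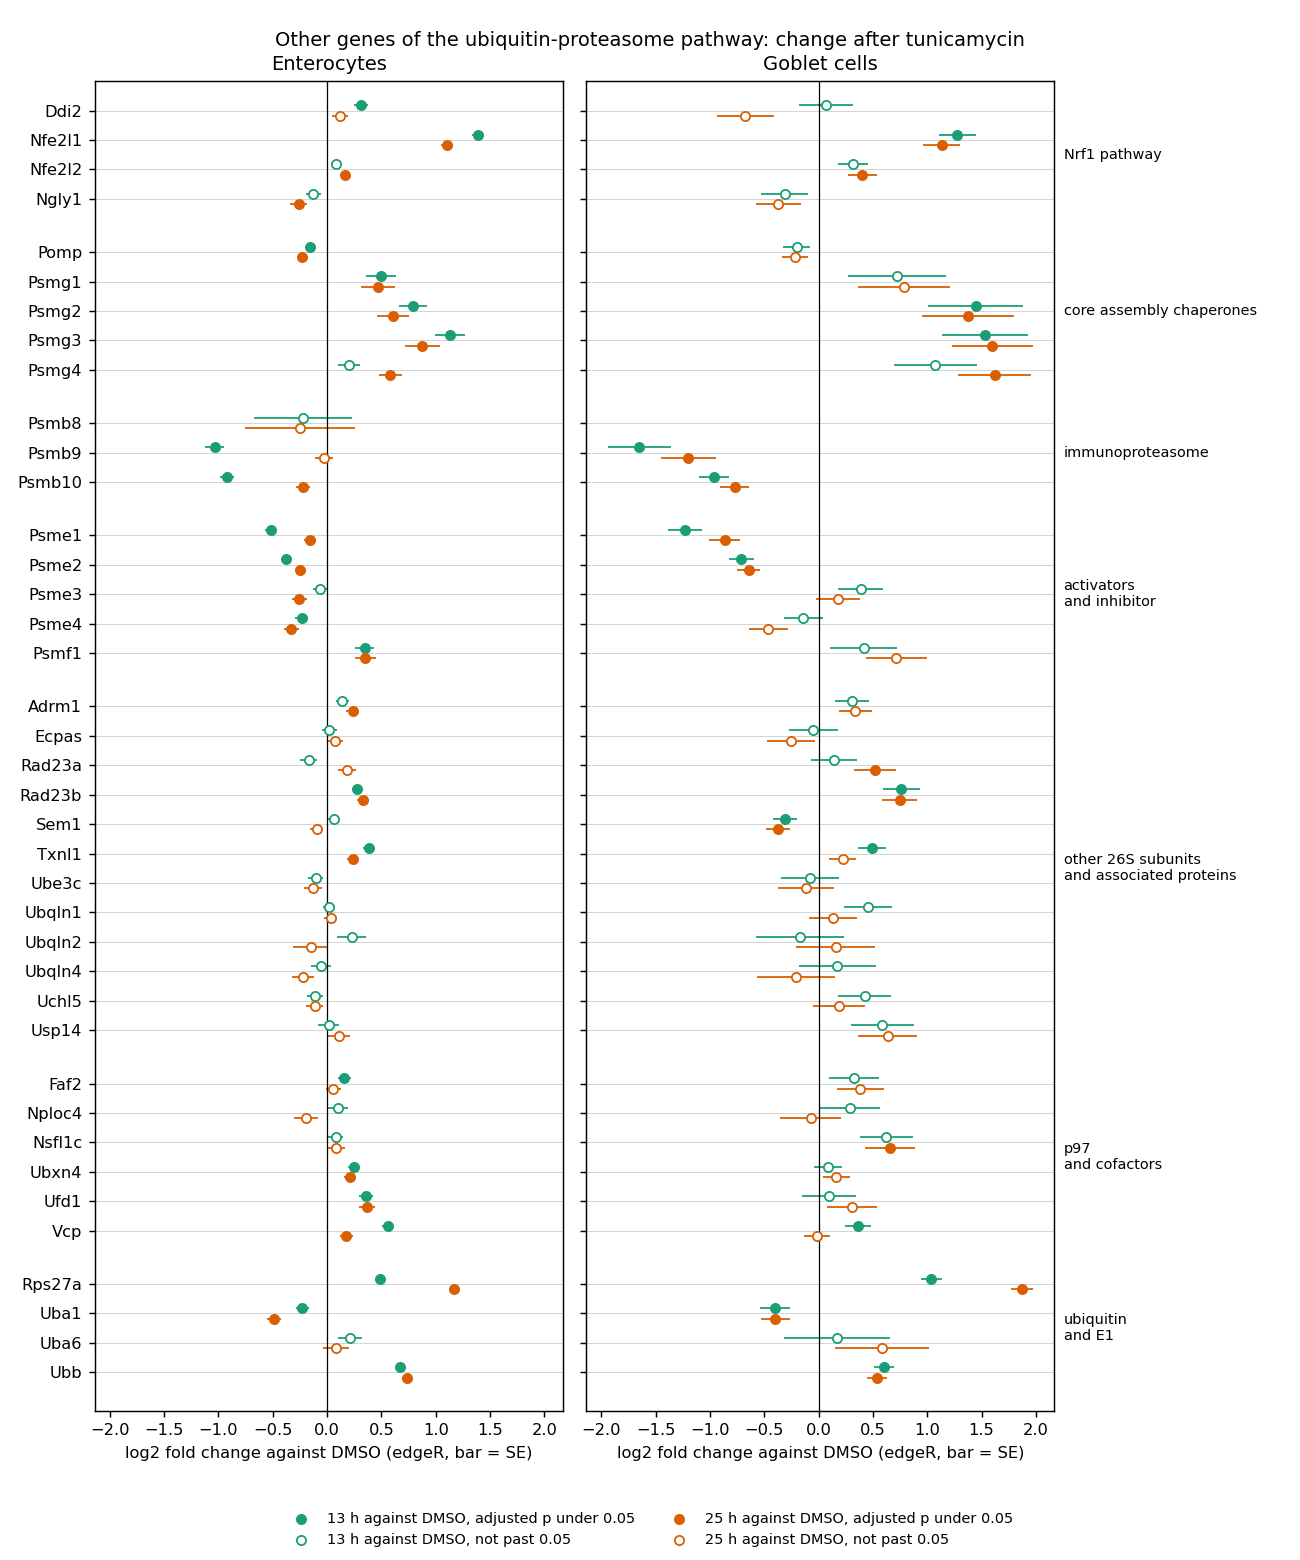
Log2 fold change against DMSO (horizontal axis, bar = standard error) of other pathway genes by list, in enterocytes (left) and goblet cells (right), at 13 h (green) and 25 h (orange) of tunicamycin, with filled points for adjusted p under 0.05. Nfe2l1 stands at 1.39 and 1.10 in enterocytes, Psmg3 at 1.13 and 0.88, and Psmb9 at −1.03 and −0.03.

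For the counts that follow, 23.8% of all genes tested in enterocytes rose and 23.8% fell at 13 h. At 25 h 26.1% rose and 24.2% fell, and no list was tested as a set. Among 12 other subunits and associated proteins found of 14 listed, 2 rose in enterocytes at 13 h and 3 at 25 h, and none fell. These were the shuttle factor Rad23b (0.28 and 0.33), the proteasome-bound thioredoxin Txnl1 (0.38 and 0.24) and, at 25 h, the ubiquitin receptor Adrm1 (0.24). Of 6 genes found for p97, the ATPase that extracts proteins from the endoplasmic reticulum, and its cofactors, 4 rose at 13 h and 3 at 25 h, with Vcp, which encodes p97, at 0.56 and 0.18 and Ufd1 at 0.36 and 0.37. Of the 4 ubiquitin and E1 genes reported here, 2 rose and 1 fell at each time. The polyubiquitin gene Ubb rose by 0.67 and 0.73 and the ribosomal fusion gene Rps27a by 0.49 and 1.17, while the main E1 gene Uba1 fell (−0.23 and −0.48).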

How the data were processed

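Single-cell UMI counts were deposited by the authors as 1 sparse matrix of whole-number counts per gene and cell, with a table giving each cell's library and class. Per the submitters' processing notes, Cell Ranger and mm10 were used, and the version was not given in the sources used here. The authors' class labels (unit other) were used as deposited, and no cell was reclassified. Gene symbols came from GENCODE for 27645 of the 27998 identifiers.

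A minimum of 1000 UMIs and 500 genes a cell, with mitochondrial UMIs up to 25%, removed 96 of 5122 cells. Barcodes occurring in more than 1 library numbered 12. Doublets were not removed, and an alternative left out cells over 2.5 times their library's median UMIs. UMIs were summed per library and class and tested with edgeR 4.0.16 (R 4.3.3), with filterByExpr, TMM scaling, a quasi-likelihood F test over all 6 libraries and Benjamini-Hochberg adjustment at 0.05. The classes were compared in 1 model with the library as a block. Standard errors of edgeR changes were worked back from that test, as the absolute log2 change over the square root of the F statistic. The biological coefficient of variation was 0.0418 in enterocytes and 0.0788 in goblet cells. The fits were also run on simulated counts with a coefficient of variation of 0.05 in every class. That is below the 0.0788 of goblet cells and the 0.0598 of the model of both classes. The simulation therefore does not vouch for those 2 fits. Genes with no test were below the filter. Alternatives were total-count scaling, DESeq2 1.42.0, no count filter, other cell filters, a replicate block, only the 2 groups compared, all cells summed and leaving out each library.

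The members and lists were chosen with earlier results of these data known. The ubiquitin list was shortened, and the genes left out are not reported here. Values per library are given for the members with the highest and the lowest enterocyte change at 25 h in each role, and for any called in opposite directions or with a class difference in change, of which there were none. Words shared near the transcript end were 31-base words of the last 500 bases of each member's longest protein-coding transcript. They were sought in the transcripts of other GENCODE genes, and other ends of the members were not examined. Counts from Cell Ranger can miss reads shared by near-identical copies.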

Additional observations from a re-analysis of the deposited data

Results flagged for a closer look

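Among the subunit genes none differed in its change between the classes past the threshold. Among the other pathway genes, 9 results in 6 genes did, by the interaction of class and treatment in edgeR (goblet minus enterocyte log2 change). Of all 10458 genes in that model, 4.81% did at 13 h and 7.06% at 25 h. The alternative settings were run for the members only. These 9 results were therefore not checked with DESeq2, with total counts or with libraries left out. At 13 h the activator genes Psme1 (−0.76 ± 0.17, SE, adjusted p = 0.00354) and Psme2 (−0.38 ± 0.11, adjusted p = 0.0394) and the small lid subunit gene Sem1 (−0.42 ± 0.11, adjusted p = 0.0147) changed less upward or more downward in goblet cells. At 13 h the ubiquitin fusion gene Rps27a changed more upward there (0.50 ± 0.09, adjusted p = 0.000346). At 25 h the difference was −0.75 ± 0.16 for Psme1, −0.44 ± 0.11 for Psme2, −0.60 ± 0.14 for Psmb10 and −1.23 ± 0.26 for Psmb9. It was 0.66 ± 0.09 for Rps27a. Psmb9 in enterocytes was back at its DMSO level at 25 h (−0.03), while in goblet cells both 25 h libraries, at 27.7 and 14.1 CPM, lay below both DMSO libraries, at 44.5 and 53.5 CPM. The goblet marker share fell beside these differences, from 19.7 and 18.3% of goblet UMIs to 7.93 and 9.56% at 25 h, and its part in them was not tested.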

How the results depend on the processing

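No single-member call changed sign under any alternative run: 590 of the single results stayed past the threshold and 192 no longer passed. Scaling by total counts left 1 enterocyte fall at 13 h, 4 at 25 h and 0 between the times, gave 11 goblet rises at 13 h, 11 at 25 h and 0 falls, and gave 3 members with a class difference at 13 h and 1 at 25 h. The same scaling without goblet markers also left 1, 4 and 0 enterocyte falls. DESeq2 gave 4, 6 and 2 enterocyte rises (13 h, 25 h, 25 h against 13 h) and 0, 2 and 0 falls, 0 and 1 goblet rises and 0 falls, and 0 class differences in DMSO. Its calls over all genes were also fewer, 1723 up and 1777 down in enterocytes at 13 h against 2652 and 2655, and 434 up and 384 down in goblet cells at 13 h against 849 and 905. Enterocyte falls at 13 h numbered 7 with no count filter, 5 with the stricter cell filter and 6 without cells of high UMIs, and the stricter filter left 1 rise between the times. The 1 fall between the times was 0 with only the 2 groups compared and with all cells summed. The core over regulatory difference at 25 h moved to 0.0229 in enterocytes and 0.0200 in goblet cells without the most abundant members, and to 0.0329 in goblet cells without cells of high UMIs. The causes were not tested.

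Leaving out each library in turn, enterocyte rises ranged from 3 to 7 at 13 h, 6 to 8 at 25 h and 1 to 4 between the times, and falls from 2 to 7, 3 to 9 and 0 to 1. Goblet rises ranged from 1 to 3 at 13 h and 2 to 5 at 25 h, falls at 25 h from 0 to 1, class differences in DMSO from 3 to 7 and class differences in change at 13 h from 0 to 1. Rises in enterocytes at 13 h were fewest, 3, without DMSO replicate 1 or 13 h replicate 2, and falls at 25 h fewest, 3, without 25 h replicate 2. A group left with 1 library was assumed to vary like the others.

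Equal replicate numbers did not pair the libraries (correlations of deviations −0.03 to 0.01), and with the number as a replicate block the enterocyte counts were 8 up and 3 down at 13 h, 9 up and 7 down at 25 h and 4 up and 0 down between the times, and goblet counts 3 up at 13 h and 5 up and 1 down at 25 h.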
